A study of Homo sapiens with 36 samples.

Results

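Presentation of peptides on MHC class I was followed through 9 transcripts in 6 human colon cancer cell lines after treatment with JQ1. They were the heavy chains HLA-B, HLA-C and HLA-E, the light chain B2M, the peptide transporter subunits TAP1 and TAP2, the loading factor TAPBP, and the immunoproteasome subunits PSMB8 and PSMB9. The 9 genes were taken by symbol, matched on the Entrez number, from the 26468 genes of the expression table. All 9 passed a filter of at least 1 RPKM in at least 3 libraries, as did 15542 genes in all. RPKM scales the reads of a gene to its length and to a divisor for the depth of the library, so levels of different genes can be set beside each other. The lines were HCT 116, SW 480, HT-29, COLO 205, HCT-15 and COLO 320, and each was exposed for 24 h to 0.5 µM JQ1 or to its solvent DMSO. JQ1 is a small molecule inhibitor of the BET family of bromodomain proteins, which bind acetylated chromatin and promote transcription. There were 3 JQ1 and 3 DMSO libraries per line, 36 in all, and the labels give no genotype for any line. The labels do not say that the 3 libraries of a group came from separate cultures, so p-values measure the spread between these libraries, which may be technical.

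Class I molecules show cytotoxic T cells a sample of the peptides made inside a cell. Proteasomes cut proteins into peptides, and in immunoproteasomes the inducible subunits PSMB8, PSMB9 and PSMB10 take the places of PSMB5, PSMB6 and PSMB7. TAP1 and TAP2 together carry the peptides into the endoplasmic reticulum, where TAPBP (tapasin) holds an empty heavy chain paired with B2M beside the transporter until a peptide is bound. HLA-B and HLA-C are highly polymorphic and present to T cells, whereas HLA-E varies little and mainly engages receptors on natural killer cells. Interferons raise most of these genes, in part through IRF1 and the transactivator NLRC5, and tumours of the colon are known to lose parts of the pathway.

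The depth of a library ran between 18.76 and 53.11 M reads assigned to genes (median 24.52 M). Of 7 epithelial markers, EPCAM stood at 133 to 672 RPKM with JQ1 and 186 to 808 RPKM with DMSO, as line means, in the lines other than COLO 320. Markers moved with JQ1 in those 5 lines: KRT8, KRT18 and KRT19 rose in all 5 and EPCAM fell in 4. In HCT-15 the 7 markers summed to 7072 to 7164 RPKM with JQ1 and 2323 to 2346 RPKM with DMSO, and KRT19 averaged 1410.4 RPKM with JQ1 and 274 RPKM with DMSO. Single markers were low in some of these lines, with CDX2 at 9.90 RPKM with JQ1 and 0.330 RPKM with DMSO in COLO 205 and VIL1 at 0.234 RPKM with JQ1 and 0.106 RPKM with DMSO in HCT 116. COLO 320 went against the epithelial label for part of the list. In that line EPCAM averaged 0.0713 RPKM with JQ1 and 1.37 RPKM with DMSO, CDH1 was at or near 0 in both groups, and KRT19 was at 0 in all 3 JQ1 libraries and averaged 0.0400 RPKM with DMSO, while the intestinal factor CDX2 averaged 848 RPKM with JQ1 and 1099 RPKM with DMSO. COLO 320 also carried the leukocyte gene PTPRC, at 4.07 RPKM with JQ1 and 3.48 RPKM with DMSO, and the fibroblast gene COL3A1, at 2.65 RPKM with JQ1 and 13.2 RPKM with DMSO. Both were at or near 0 in the other lines. The summed 6 leukocyte markers were between 2.71 and 7.41 RPKM in every library except those of HT-29 and COLO 205, where LYZ made up most of sums of 609.9 to 1139.6 RPKM with JQ1 and 1203 to 1552 RPKM with DMSO. The 5 fibroblast markers summed to no more than 3.38 RPKM outside the COLO 320 DMSO libraries, which held 15.5 to 15.8 RPKM, and the 4 endothelial markers to no more than 0.2001 RPKM in any library. The part of these markers in the results below was not tested. How reads were shared among the near-identical HLA genes, and what became of reads from alleles unlike the reference, is not stated in the labels or notes, so HLA levels, and differences between lines above all, are uncertain to that extent.

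JQ1 moved the genes of the pathway in different directions, both between its steps and within them. HLA-E and B2M rose in 6 of 6 lines, HLA-C in 5 and HLA-B in 4, whereas PSMB8 rose in none and fell in 5. TAP2 and TAPBP each fell in 4 lines and rose in 2, TAP1 rose in 3 and fell in 2, and PSMB9 rose in 3 and fell in 1. Changes are JQ1 minus DMSO differences of log2(RPKM + 0.5), and folds are taken on the same scale, which understates those of genes with low values. Over the 54 combinations of gene and line, limma called 31 higher with JQ1 and 18 lower at an adjusted p under 0.05, and 5 were not called. The JQ1 and DMSO libraries did not overlap in 51 of the 54, where the share of all tested genes without overlap was 69.1% in HCT 116, 73.8% in SW 480, 75.0% in HT-29, 74.0% in COLO 205, 73.2% in HCT-15 and 71.6% in COLO 320. In bulk RNA, a change in RNA per cell and a change in the mix of cells cannot be told apart.

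The lines differed in how many of the 9 genes rose. HT-29 had 8 higher and 1 lower, against 36.6% of all tested genes higher and 37.3% lower. COLO 205 had 7 higher and 2 lower, against 34.2% and 38.6% of all genes. HCT 116 had 5 higher and 2 lower, against 32.4% and 35.5% of all genes, and SW 480 also had 5 higher and 2 lower, against 33.9% and 40.1%. In HCT-15 the balance turned, with 4 higher and 5 lower, against 34.8% and 35.4% of all genes. COLO 320 had 2 higher and 6 lower, against 31.0% and 37.2% of all genes, and 1 higher after quantile scaling. The median log2 change of the 9 genes was 0.95 in HT-29, 0.73 in COLO 205, 0.22 in HCT 116, 0.10 in SW 480, -0.20 in HCT-15 and -0.24 in COLO 320, where the median of all tested genes lay between -0.02 and 0.00. Without SW 480 JQ1 replicate 1 or DMSO replicate 1, the count of lower genes in SW 480 was 1. Averaged over the lines, 5 of the 9 genes were higher and 3 lower, against 40.2% and 48.3% of all genes, and TAP1 was not called.

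**Figure D1:**
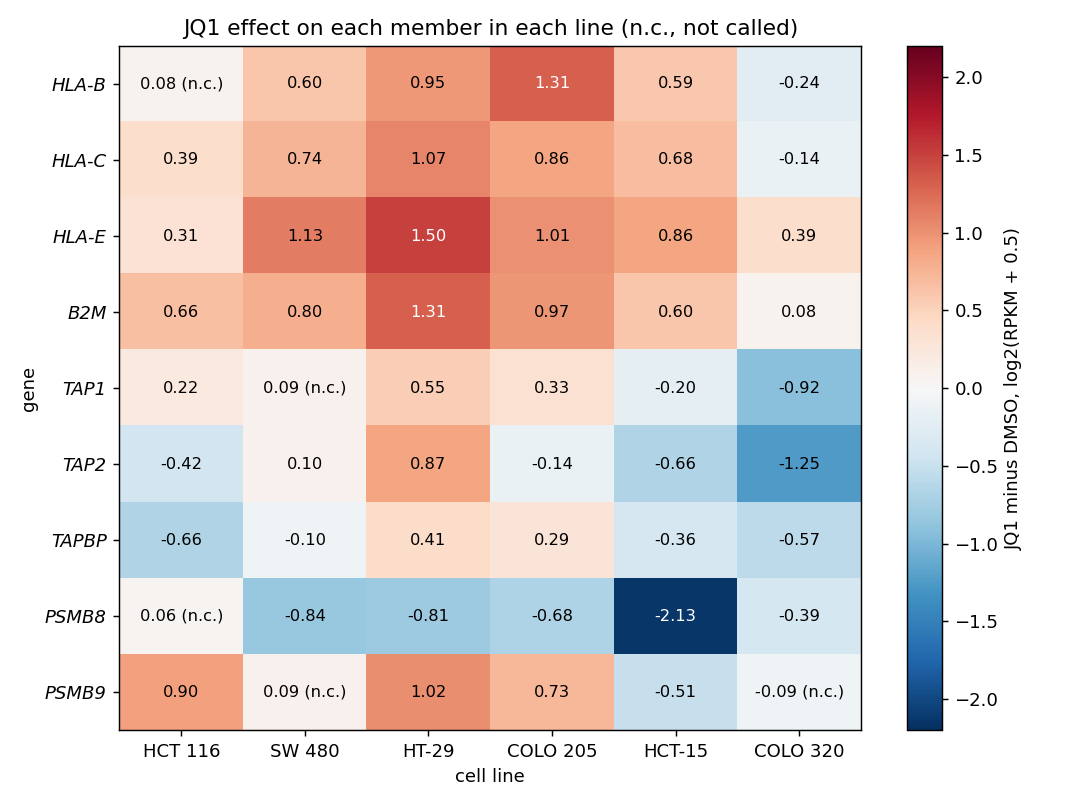
The JQ1 minus DMSO difference of log2(RPKM + 0.5) for each of the 9 genes (rows) in each line (columns), with red for higher and blue for lower in JQ1 and n.c. for a difference that was not called. HLA-E and B2M are above 0 in every column, PSMB8 reaches -2.13 in HCT-15, and HT-29 has 1 blue cell.

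All 9 genes differed between the lines in their response to JQ1 by the F test of the interaction, as did 93.3% of all tested genes. All 9 also differed between lines in DMSO, as did 98.8% of all tested genes.

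Regulatory sequence just before the genes is shown for the members whose 300-base promoter window, from 250 bases before to 50 bases after the start in RefSeq for GRCh38.p14, held a match to an interferon-response or a kappa B motif. Windows were present for 8 of the 9 genes, and some genes had more than one. Capitals mark matches on either strand to GAAA, any 2 bases and GAAA, the core of the interferon-stimulated response element, in B2M, TAP1, TAP2, TAPBP and PSMB8, and to GGGGATTC, the heavy chain kappa B core, in HLA-B and HLA-C. In B2M, TAP1 and TAPBP the capitals cover a pair of overlapping matches.
HLA-B, chr6:31357130-31357429, minus strand: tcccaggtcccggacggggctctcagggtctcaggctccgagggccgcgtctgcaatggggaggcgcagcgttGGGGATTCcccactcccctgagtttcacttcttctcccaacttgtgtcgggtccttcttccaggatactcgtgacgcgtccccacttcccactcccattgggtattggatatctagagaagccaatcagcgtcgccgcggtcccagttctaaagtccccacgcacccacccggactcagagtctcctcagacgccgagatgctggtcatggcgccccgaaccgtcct
HLA-C, chr6:31272043-31272342, minus strand: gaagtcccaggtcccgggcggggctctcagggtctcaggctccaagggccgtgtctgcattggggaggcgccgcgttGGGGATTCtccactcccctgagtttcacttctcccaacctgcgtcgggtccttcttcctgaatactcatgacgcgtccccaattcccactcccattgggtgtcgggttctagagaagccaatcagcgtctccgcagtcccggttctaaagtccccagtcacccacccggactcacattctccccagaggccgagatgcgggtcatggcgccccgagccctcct
B2M, chr15:44711267-44711566, plus strand: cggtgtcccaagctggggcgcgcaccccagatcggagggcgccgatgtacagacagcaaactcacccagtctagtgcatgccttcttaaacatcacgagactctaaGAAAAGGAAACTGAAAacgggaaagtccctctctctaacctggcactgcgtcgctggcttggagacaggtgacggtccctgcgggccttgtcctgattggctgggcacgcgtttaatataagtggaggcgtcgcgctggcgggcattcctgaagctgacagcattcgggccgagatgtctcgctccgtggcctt
TAP1, chr6:32853655-32853954, minus strand: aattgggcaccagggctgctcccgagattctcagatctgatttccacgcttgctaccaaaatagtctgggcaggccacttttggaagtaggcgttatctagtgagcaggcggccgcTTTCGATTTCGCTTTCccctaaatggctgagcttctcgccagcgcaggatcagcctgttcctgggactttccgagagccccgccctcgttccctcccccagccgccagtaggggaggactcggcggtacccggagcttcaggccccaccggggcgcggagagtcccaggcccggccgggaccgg
TAP2, chr6:32838690-32838989, minus strand: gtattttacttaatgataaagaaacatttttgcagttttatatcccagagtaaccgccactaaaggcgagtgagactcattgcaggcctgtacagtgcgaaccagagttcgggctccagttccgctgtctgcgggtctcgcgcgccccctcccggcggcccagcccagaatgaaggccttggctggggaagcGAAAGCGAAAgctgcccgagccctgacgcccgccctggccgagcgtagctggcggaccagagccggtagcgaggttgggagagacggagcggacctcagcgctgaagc
TAPBP, chr6:33314029-33314328, minus strand: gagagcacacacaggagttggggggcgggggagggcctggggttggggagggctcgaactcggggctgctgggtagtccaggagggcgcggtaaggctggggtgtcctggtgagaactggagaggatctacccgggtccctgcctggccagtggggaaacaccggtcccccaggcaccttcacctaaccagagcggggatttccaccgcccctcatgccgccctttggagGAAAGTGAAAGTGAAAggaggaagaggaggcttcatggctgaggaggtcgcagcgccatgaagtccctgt
PSMB8, chr6:32843998-32844297, minus strand: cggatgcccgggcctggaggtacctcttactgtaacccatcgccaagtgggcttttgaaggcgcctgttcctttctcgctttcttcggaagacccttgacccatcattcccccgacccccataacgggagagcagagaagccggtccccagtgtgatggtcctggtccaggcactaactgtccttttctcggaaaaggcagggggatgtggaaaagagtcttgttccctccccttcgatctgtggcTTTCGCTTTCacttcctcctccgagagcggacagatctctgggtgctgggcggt

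The interferon-response letters occurred in 3.57% of the 35116 promoter windows of this length, and in windows of 5 of the 8 genes. GGGGATTC occurred in 0.888% of windows and in 2 of the 8 genes. TGACG, the core bound by CREB-type factors in the X box of class I promoters, was found in 6 of the 8 genes and in 24.6% of windows. CCAAT, the letters of the Y box, was found in 5 of the 8 genes and in 34.6% of windows. Counted per window, the 8 genes had 10 windows. Of these, 5 held the interferon-response letters, 2 GGGGATTC, 6 TGACG and 5 CCAAT. The genes with the interferon-response letters moved both ways, since B2M rose in 6 lines and PSMB8 fell in 5. A match is a description of letters and not a test of binding.

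The heavy chains rose in the 5 lines other than COLO 320, with 1 exception. HLA-E, the least polymorphic of the 3, changed the most on average, by 0.87 on the log2 scale (SE 0.0087, adjusted p = 1.55e-33 with limma over libraries), which is 1.82-fold. Unless the lines are named as the unit, the SE and p-value of an average measure the spread between libraries and not between lines. With the lines as the unit, 6 of the 9 members were unchanged in call on average, and TAP2, TAPBP and PSMB9 lost theirs. In HT-29, HLA-E stood at 80.9, 80.6 and 81.4 RPKM in the JQ1 libraries, against 28.6, 28.4 and 27.8 RPKM in the DMSO libraries. That 2.83-fold rise was the largest HLA-E change of the 6 lines, and no library came near the other group. In SW 480, HLA-E had 63.0, 63.4 and 63.9 RPKM with JQ1, against 28.7, 28.5 and 29.1 RPKM with DMSO. COLO 205 libraries held 70.8, 70.3 and 68.3 RPKM with JQ1 and 35.4, 33.5 and 34.3 RPKM with DMSO. These are 2.18-fold and 2.02-fold rises. HLA-E in HCT-15 was 45.7, 46.1 and 46.5 RPKM with JQ1 and 24.9, 25.1 and 25.4 RPKM with DMSO, a 1.82-fold rise. The smallest rises were 1.24-fold in HCT 116, with 44.1, 43.6 and 44.5 RPKM in JQ1 libraries against 34.6, 35.98 and 35.6 RPKM in DMSO libraries, and 1.31-fold in COLO 320, with 10.2, 9.82 and 9.55 RPKM in JQ1 libraries against 7.58, 7.25 and 7.40 RPKM in DMSO libraries. All 6 lines had their JQ1 libraries above their DMSO libraries.

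In DMSO, HLA-C was the most abundant of the 3 heavy chains in every line except COLO 320. Its average change was 0.60 on the log2 scale (SE 0.0249, adjusted p = 3.62e-19). COLO 205 libraries reached 394, 386 and 386 RPKM with JQ1, against 207, 212 and 221 RPKM with DMSO. HT-29 had a lower level and a 2.1-fold rise, with 66.6, 68.7 and 62.0 RPKM in JQ1 libraries and 31.1, 30.6 and 31.4 RPKM in DMSO libraries. Rises elsewhere were 1.67-fold in SW 480, 1.60-fold in HCT-15 and 1.31-fold in HCT 116. In SW 480, HLA-C averaged 266 ± 8.15 RPKM with JQ1 and 159 ± 3.05 RPKM with DMSO (SD, n = 3 each). COLO 320 stood apart, with 1.36, 1.84 and 1.397 RPKM in JQ1 libraries and 1.91, 1.47 and 1.84 RPKM in DMSO libraries. These groups overlapped, and the log2 difference of -0.14 (adjusted p = 0.0382) was not called without JQ1 replicate 1 (0.265), JQ1 replicate 3 (0.204), DMSO replicate 1 (0.248) or DMSO replicate 3 (0.158), and was 0.0035 after quantile scaling.

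HLA-B followed HLA-C in direction but with its peak in another line. On average it rose by 0.55 on the log2 scale (SE 0.0145, adjusted p = 6.79e-24). COLO 205 had the largest rise, 2.49-fold, with 106, 109 and 105 RPKM in the JQ1 libraries against 42.3, 42.4 and 43.4 RPKM in the DMSO libraries. HT-29 held 15.9, 14.6 and 14.6 RPKM with JQ1 and 7.32, 7.68 and 7.67 RPKM with DMSO, a 1.93-fold rise from a low level. In SW 480 and HCT-15 the rises were 1.52-fold and 1.51-fold. HCT 116 libraries were at 58.0, 56.7 and 57.0 RPKM with JQ1 and at 53.4, 54.6 and 54.7 RPKM with DMSO, a log2 difference of 0.08 that was not called (adjusted p = 0.0551), though the groups did not overlap. It was called with an adjusted p of 0.0158 without COLO 320 JQ1 replicate 2, 0.0372 without HT-29 JQ1 replicate 1, 0.0422 without COLO 320 JQ1 replicate 3 and 0.0496 without SW 480 DMSO replicate 1, since the spread was estimated over all libraries. In COLO 320 HLA-B fell by 0.24 on the log2 scale, with 3.48, 3.96 and 3.41 RPKM in JQ1 libraries against 4.36, 4.44 and 4.27 RPKM in DMSO libraries (adjusted p = 7.34e-07).

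**Figure D2:**
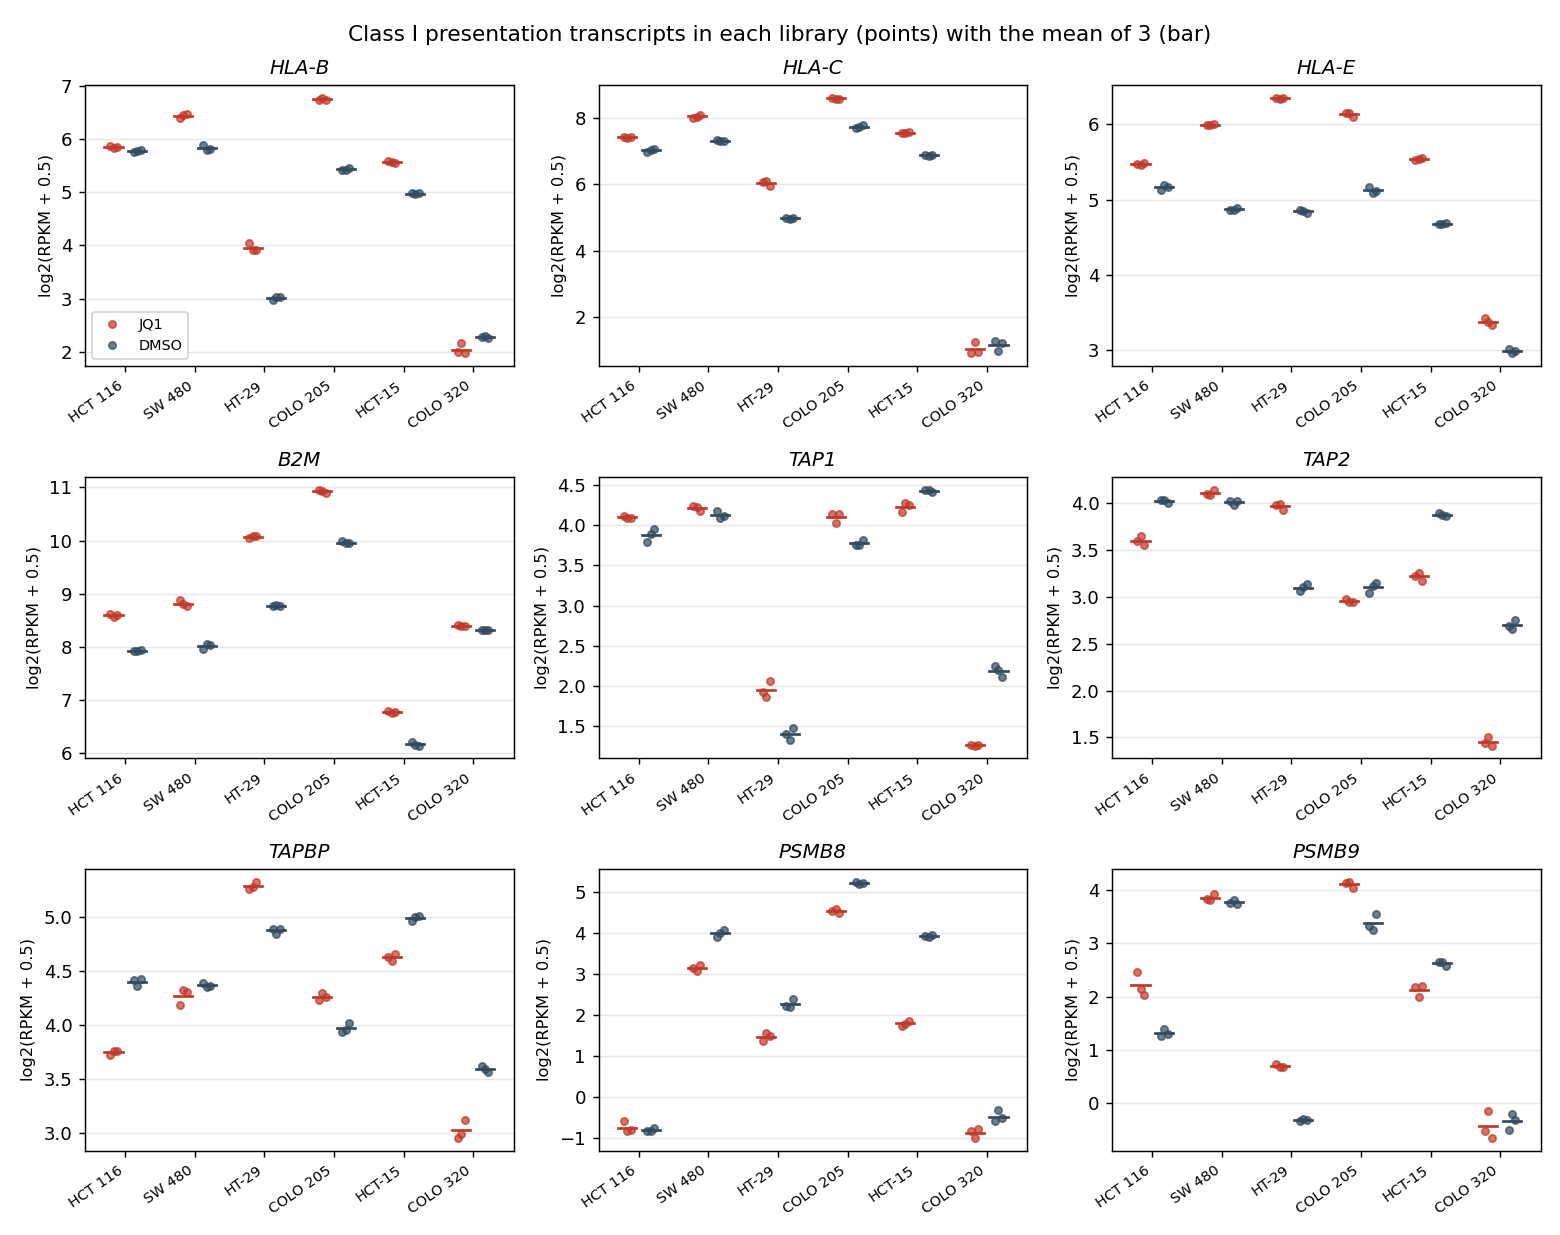
Level of each of the 9 transcripts as log2(RPKM + 0.5) in each library (points) and the mean of 3 (bars), with JQ1 in red to the left of DMSO in dark blue for each line. The heavy chains drop off in COLO 320, where B2M stays at 337 RPKM with JQ1 and 319 RPKM with DMSO.

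B2M, the invariant light chain without which class I molecules do not reach the surface, was the most abundant of the 9 transcripts in every line except HCT-15. JQ1 raised it by 0.74 on average on the log2 scale (SE 0.0099, adjusted p = 1.05e-30). HT-29 had the largest rise, 2.47-fold, with 1061, 1089.7 and 1082 RPKM in JQ1 libraries against 433, 439 and 434 RPKM in DMSO libraries. In COLO 205 the libraries stood at 1981, 1957 and 1908 RPKM with JQ1 and 1019, 987 and 985 RPKM with DMSO. The rises were smaller in SW 480, at 1.74-fold, in HCT 116, at 1.58-fold, and in HCT-15, at 1.52-fold. HCT-15 had the least B2M of all the lines, at 109.7, 107 and 109 RPKM with JQ1 and 73.1, 70.7 and 70.1 RPKM with DMSO. COLO 320 rose by 0.08 on the log2 scale, with 339, 336 and 336 RPKM in JQ1 libraries against 319, 319.8 and 317 RPKM in DMSO libraries (adjusted p = 0.00429), a difference that was not called after quantile scaling (adjusted p = 0.0837).

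Set against its partners, B2M was far from even across the lines. In COLO 320 the B2M level was 22.5 ± 0.972 times the summed level of HLA-B, HLA-C and HLA-E with JQ1 and 23.6 ± 0.659 times with DMSO (SD, n = 3 each). In HCT-15 it was 0.386 ± 0.00447 times with JQ1 and 0.412 ± 0.00899 times with DMSO, so the 3 heavy chains together outnumbered B2M per length. The ratio was 6.66 with JQ1 and 6.51 with DMSO in HT-29, 3.45 with JQ1 and 3.44 with DMSO in COLO 205, and 1.08 with JQ1 and 1.06 with DMSO in SW 480. HCT 116 was the line where it shifted most relative to its spread, to 1.41 ± 0.00641 with JQ1, against 1.10 ± 0.0205 with DMSO. These ratios were not tested.

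TAP2 and TAPBP each fell in 4 of the 6 lines, and TAP1 rose in 3 and fell in 2. TAP1 averaged a log2 change of 0.01 (SE 0.0193, adjusted p = 0.622). Without COLO 320, the line with the lowest TAP1 change, the average was 0.20. That line was left out after seeing the data, so the higher average is no test of a rise. It rose in HT-29, to 3.29, 3.14 and 3.69 RPKM in JQ1 libraries, against 2.14, 2.00 and 2.28 RPKM in DMSO libraries. It also rose 1.25-fold in COLO 205 and 1.17-fold in HCT 116. COLO 320 went the other way, with 1.90, 1.89 and 1.91 RPKM in JQ1 libraries and 4.25, 4.10 and 3.82 RPKM in DMSO libraries, which is 1.9-fold lower with JQ1. HCT-15 libraries were at 17.4, 18.8 and 18.5 RPKM with JQ1 and 21.2, 21.2 and 20.9 RPKM with DMSO, a fall by 0.20 on the log2 scale. In SW 480 the difference of 0.09 was not called (adjusted p = 0.0911), with 18.5, 18.2 and 17.6 RPKM in JQ1 libraries against 17.6, 16.5 and 16.8 RPKM in DMSO libraries. TAP1 overlaps the antisense transcript PSMB8-AS1 in the RefSeq annotation, and since the labels do not state whether strand was kept, reads of the overlap cannot be told apart.

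TAP2, the second subunit of the transporter, had the widest range of the peptide-loading genes. HT-29 rose 1.83-fold, with 15.3, 15.4 and 14.7 RPKM in JQ1 libraries and 7.83, 8.09 and 8.31 RPKM in DMSO libraries. COLO 320 had 2.21, 2.35 and 2.16 RPKM with JQ1, against 5.97, 5.82 and 6.26 RPKM with DMSO, a 2.38-fold lower level. The groups of these 2 lines lay on opposite sides of each other without overlap. TAP2 was also lower in HCT-15, at 8.83, 9.08 and 8.53 RPKM with JQ1 against 14.3, 14.1 and 14.1 RPKM with DMSO. In HCT 116 it was at 11.6, 12.1 and 11.2 RPKM with JQ1 against 15.8, 15.9 and 15.5 RPKM with DMSO, and in COLO 205 it was 1.1-fold lower with JQ1. SW 480 rose by 0.10 on the log2 scale (adjusted p = 0.00584). That rise was not called when libraries were scaled to their summed RPKM (adjusted p = 0.0611). In HCT 116 and COLO 205 TAP1 rose while TAP2 fell. On average TAP2 fell by 0.25 (SE 0.0133, adjusted p = 1.46e-16 over libraries), but with the 6 lines as the unit of replication the adjusted p was 0.42.

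TAPBP also split the lines, but went against TAP2 in COLO 205 and SW 480. It rose in HT-29, with 37.8, 38.2 and 39.6 RPKM in JQ1 libraries against 29.2, 28.2 and 29.2 RPKM in DMSO libraries, and in COLO 205, with 18.3, 19.2 and 18.7 RPKM in JQ1 libraries against 14.8, 15.1 and 15.8 RPKM in DMSO libraries. HCT 116 was lowest relative to DMSO, with 12.7, 13.02 and 13.1 RPKM with JQ1 and 20.9, 20.1 and 21.0 RPKM with DMSO, which is 1.58-fold lower. COLO 320 was 1.48-fold lower and HCT-15 1.29-fold lower with JQ1. In SW 480 TAPBP fell by 0.10 on the log2 scale (adjusted p = 0.0147), and was not called without JQ1 replicate 1 (adjusted p = 0.172) or DMSO replicate 1 (adjusted p = 0.0556). The average fall of 0.16 (SE 0.0144, adjusted p = 1.51e-11 over libraries) had an adjusted p of 0.407 with the lines as the unit. TAPBP overlaps RGL2 in the RefSeq annotation.

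The immunoproteasome subunits PSMB8 and PSMB9, whose products work side by side in the same particle, changed in different directions on average. Within a line, PSMB8 fell and PSMB9 rose in HT-29 and COLO 205 alone, and both fell in HCT-15. PSMB8, the chymotrypsin-like subunit, fell by 0.80 on average on the log2 scale (SE 0.0287, adjusted p = 1.13e-20), and PSMB9, the subunit that replaces PSMB6, rose by 0.36 (SE 0.041, adjusted p = 4.64e-09 over libraries, 0.207 with the lines as the unit). In HCT-15, PSMB8 had 2.85, 2.93 and 3.13 RPKM with JQ1, against 14.6, 14.5 and 15.02 RPKM with DMSO. This 4.39-fold lower level was the largest change on this scale of any of the 9 genes in any line. COLO 205, the line with most PSMB8, had 22.7, 23.8 and 22.1 RPKM in JQ1 libraries and 37.5, 36.5 and 36.9 RPKM in DMSO libraries. SW 480 had 8.44, 7.96 and 8.83 RPKM with JQ1 and 14.5, 15.5 and 16.3 RPKM with DMSO, and HT-29 2.08, 2.42 and 2.30 RPKM with JQ1 and 4.14, 4.12 and 4.76 RPKM with DMSO. In these 4 lines the groups were well apart.

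PSMB8 was close to 0 in the other lines. HCT 116 had 12 reads over its 3 JQ1 libraries and 10 over its 3 DMSO libraries, or 0.0965 RPKM with JQ1 and 0.0712 RPKM with DMSO on average, and no difference was called (adjusted p = 0.486). COLO 320 had 7 reads with JQ1 and 33 with DMSO. One of its JQ1 libraries, replicate 2, was at 0, which allows up to 3 reads or 0.0716 RPKM, so the fall by 0.39 on the log2 scale there depends on the 0.5 added before the log and is no measure of the fold. PSMB8 overlaps PSMB8-AS1, like TAP1.

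PSMB9 rose in 3 lines in which PSMB8 fell or was near 0. HT-29 had 1.16, 1.10 and 1.10 RPKM in JQ1 libraries against 0.296, 0.311 and 0.298 RPKM in DMSO libraries, from 114 reads with JQ1 and 22 reads with DMSO in all. HCT 116 had 4.98, 3.90 and 3.61 RPKM with JQ1 and 1.88, 2.13 and 1.95 RPKM with DMSO, a 1.86-fold rise. COLO 205 had 17.0, 17.3 and 15.9 RPKM with JQ1 and 9.60, 8.97 and 11.3 RPKM with DMSO, a 1.66-fold rise. HCT-15 alone had a fall in both subunits that was called, with PSMB9 at 4.01, 3.48 and 4.09 RPKM in JQ1 libraries against 5.79, 5.77 and 5.47 RPKM in DMSO libraries. SW 480 had 13.7, 13.7 and 14.8 RPKM with JQ1 and 13.1, 13.5 and 12.9 RPKM with DMSO, which was not called (adjusted p = 0.441). PSMB9 in COLO 320 rested on 20 reads with JQ1 and 26 with DMSO, with a log2 difference of -0.09 (adjusted p = 0.434) that became -0.24 (adjusted p = 0.0281) without JQ1 replicate 2.

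The standard subunits that these replace were lower with JQ1, so the change was also expressed as a percentage of each partner. PSMB5, PSMB6 and PSMB7 all fell on average, 3 of 3, against 48.3% of all tested genes lower. By line, PSMB5 and PSMB6 fell in 6 of 6 and PSMB7 in 5, without a call in HCT-15. The share of all tested genes lower was 35.4% to 40.1% per line. In COLO 205 the level of PSMB8 was 45.2 ± 1.36% of that of PSMB5 with JQ1 and 43.9 ± 1.21% with DMSO (SD, n = 3 each), so in this line both subunits were lower by about the same factor. SW 480 was at 19.7 ± 0.833% with JQ1 and 22.1 ± 0.862% with DMSO. HCT-15 differed, with 3.87 ± 0.0696% with JQ1 and 14.1 ± 0.435% with DMSO. PSMB9 relative to PSMB6 was 13.3 ± 0.637% with JQ1 and 5.75 ± 0.711% with DMSO in COLO 205, and 1.22 ± 0.0835% with JQ1 and 0.276 ± 0.00621% with DMSO in HT-29. In SW 480, where PSMB9 itself was not called, it was 8.79 ± 0.573% of PSMB6 with JQ1 and 6.002 ± 0.257% with DMSO. HCT-15 went the other way, at 3.19 ± 0.265% with JQ1 and 3.95 ± 0.106% with DMSO. These percentages were not tested.

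**Figure D3:**
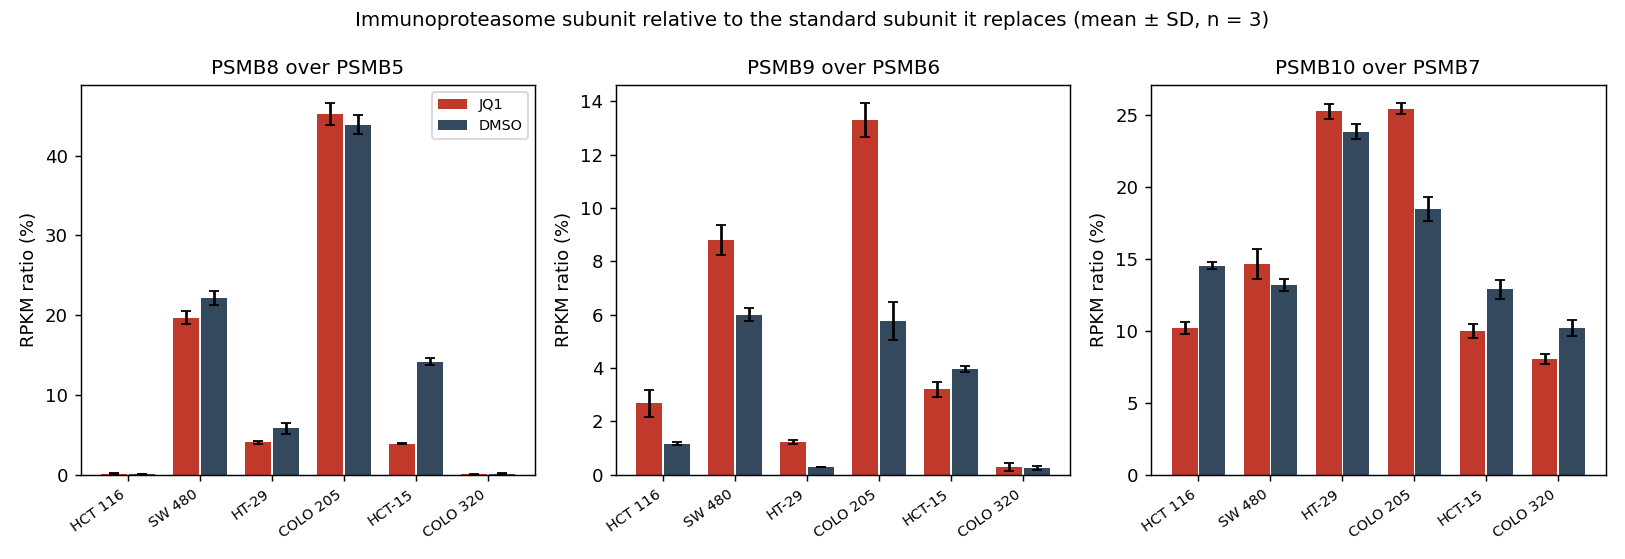
Level of each immunoproteasome subunit as a percentage of the standard subunit it replaces (mean ± SD, n = 3), with JQ1 in red to the left of DMSO in dark blue for each line. PSMB8 over PSMB5 drops to 3.87% with JQ1 in HCT-15, against 14.1% with DMSO, while PSMB9 over PSMB6 stands at 13.3% with JQ1 and 5.75% with DMSO in COLO 205.

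The lines differed widely in these genes without JQ1. In DMSO, PSMB8 spanned from 0.0712 ± 0.0167 RPKM in HCT 116 to 37.0 ± 0.503 RPKM in COLO 205 (SD, n = 3 each). HLA-C spanned from 1.74 ± 0.236 RPKM in COLO 320 to 213 ± 7.03 RPKM in COLO 205, and PSMB9 from 0.291 ± 0.0814 RPKM in COLO 320 to 13.2 ± 0.336 RPKM in SW 480. The ranges were narrower for HLA-E, 4.77-fold, and narrowest for TAPBP and TAP2, at 2.7-fold and 2.62-fold between the highest and lowest line. Of the 135 combinations of gene and pair of lines, 127 were called in DMSO, where between 77.7% and 87.1% of all tested genes were called per pair of lines. With HCT 116 the share of all genes was 85.0% for SW 480, 85.0% for HT-29, 85.7% for COLO 205, 77.7% for HCT-15 and 85.0% for COLO 320. With SW 480 it was 85.4% for HT-29, 86.1% for COLO 205, 83.3% for HCT-15 and 87.1% for COLO 320. Of the remaining pairs, HT-29 had 80.8% with COLO 205, 81.5% with HCT-15 and 86.8% with COLO 320, COLO 205 had 83.8% with HCT-15 and 87.1% with COLO 320, and HCT-15 had 84.0% with COLO 320.

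No single line was low throughout. COLO 320 was the lowest line for HLA-B, HLA-C, HLA-E, TAP2, TAPBP and PSMB9, yet ranked behind COLO 205 and HT-29 alone for B2M. HT-29 was lowest for TAP1, at 2.14 ± 0.141 RPKM, and next to lowest for HLA-B, HLA-C, TAP2 and PSMB9, but only COLO 205 exceeded it for B2M, where it stood at 435 ± 2.94 RPKM, and only HCT-15 for TAPBP, where it stood at 28.9 ± 0.565 RPKM. HCT-15 had the lowest B2M, at 71.3 ± 1.62 RPKM, with the highest TAP1, at 21.1 ± 0.164 RPKM, and the highest TAPBP, at 31.3 ± 0.468 RPKM. HCT 116 had the most HLA-E and TAP2 beside the least PSMB8. COLO 205 led for HLA-C, B2M and PSMB8.

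In the ranking of each gene over the 6 lines in DMSO, 8 of the 45 neighbouring pairs were not called. These were SW 480 and HCT 116 for HLA-B (adjusted p = 0.124), HCT 116 and COLO 205 (0.0716) and SW 480 and HT-29 (0.253) for HLA-E, HCT 116 and SW 480 for TAPBP (0.354), SW 480 and HCT-15 for PSMB8 (0.395), and HT-29 and COLO 320 for PSMB9 (0.825). For TAP2 they were HCT 116 and SW 480 (0.689) and COLO 205 and HT-29 (0.951). HCT 116 and COLO 205 were called for TAP1 (0.0435), although their libraries overlapped.

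Across the 6 lines the responses of most members went together, as a description over 6 points that share their libraries. Pearson's r of the JQ1 change was 0.958 for B2M and TAP2, 0.95 for HLA-C and B2M, 0.948 for B2M and TAP1 and 0.90 for HLA-B and HLA-C. PSMB8 went less closely with the rest, as did PSMB9 with some of them. For PSMB8, r was between -0.398 and 0.063 against every member but PSMB9, for which it was 0.657. PSMB8 had few reads in HCT 116 (12 with JQ1 and 10 with DMSO) and COLO 320 (7 with JQ1 and 33 with DMSO). Its changes in those lines depend on the 0.5 added before the log, so its r values are uncertain to that extent. For PSMB9, r was 0.232 with HLA-E, 0.343 with HLA-B, 0.402 with HLA-C and 0.454 with TAPBP, but 0.632 with TAP2 and 0.651 with B2M. TAP1 and PSMB9, which lie head to head, had r = 0.733, and both rose in HT-29, COLO 205 and HCT 116 and both fell in HCT-15. In DMSO levels the picture differed, since B2M had r between -0.574 and 0.132 with the other members while HLA-C and HLA-E reached 0.934.

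Over all 36 libraries the 5 genes most like HLA-B were CLIP2 (r = 0.949), HLA-C (0.943), GTF2A1 (0.941), TIAM1 (0.94) and MIR497HG (0.933). The 5 most like TAP1 were PSMB8-AS1 (r = 0.984), which it overlaps, GAS6 (0.96), PGAP4 (0.958), EPDR1 (0.955) and BIK (0.951). These values follow mostly the differences between lines. PSMB8-AS1 averaged 0.750 RPKM with JQ1 and 1.48 RPKM with DMSO in COLO 320, and 1.504 RPKM with JQ1 and 0.880 RPKM with DMSO in HT-29, in the same directions as TAP1. In COLO 205 it averaged 9.28 ± 0.361 RPKM with JQ1 and 6.60 ± 0.455 RPKM with DMSO (SD, n = 3 each), where PSMB8 was lower with JQ1.

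Other genes of the pathway were more often lower than higher over libraries. Of 19 listed, 18 passed the filter, with HLA-G left out, and on average 3 were higher, 12 lower and 3 not called, against 40.2% of all tested genes higher and 48.3% lower. With the lines as the unit, 7 of the 12 lower calls were lost, with an adjusted p of 0.269 for PSME2, 0.137 for ERAP1, 0.274 for CALR, 0.0673 for CANX, 0.238 for PDIA3, 0.224 for NLRC5 and 0.591 for IRF2. Lower calls of all tested genes went from 7500 over libraries to 3162 with this unit. The median log2 change of the 18 was -0.19, against -0.04 for all tested genes. ERAP2, an aminopeptidase that trims peptides in the endoplasmic reticulum, fell in 6 of 6 lines and by 0.89 on average (SE 0.022, adjusted p = 1.09e-24). In HCT-15 it averaged 1.55 ± 0.151 RPKM with JQ1 and 6.58 ± 0.0734 RPKM with DMSO (SD, n = 3 each), and in HT-29 9.75 ± 0.290 RPKM with JQ1 and 20.04 ± 0.149 RPKM with DMSO. PSMB10, the remaining immunoproteasome subunit, fell by 0.35, as did the chaperone CANX by 0.31 and ERAP1 by 0.30. The activator subunit PSME1 rose by 0.29 on average and was higher in 5 of 6 lines. HLA-F, TAPBPL and RFX5 were not called on average.

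Transcription factors of the class I genes were split as well. IRF1 rose by 0.36 on average (SE 0.0214, adjusted p = 2.09e-15) and in 5 of 6 lines, with 15.9 ± 0.692 RPKM with JQ1 and 8.76 ± 0.182 RPKM with DMSO in HT-29 (SD, n = 3 each). RELA rose by 0.28, and NFKB1, its partner in NF-kappa B, fell by 0.57. RFXAP fell by 0.37 and RFXANK by 0.31 on average, each in 6 of 6 lines. NLRC5, the class I transactivator, fell by 0.27 on average (SE 0.0191, adjusted p = 1.18e-13 over libraries). It fell in COLO 320, HCT-15 and HCT 116, the 3 lines in which TAP2 and TAPBP also had their largest falls. In the same lines HLA-E and B2M rose in all 3, HLA-C in HCT-15 and HCT 116, and HLA-B in HCT-15. A link between NLRC5 and these genes was not tested. NLRC5 averaged 0.208 ± 0.00900 RPKM with JQ1 in COLO 320, against 0.817 ± 0.0433 RPKM with DMSO. It averaged 1.13 ± 0.0372 RPKM with JQ1 in HCT-15, against 2.17 ± 0.146 RPKM with DMSO. In HCT 116 it averaged 0.587 ± 0.0618 RPKM with JQ1, against 0.851 ± 0.0306 RPKM with DMSO. In COLO 205 it rose to 3.35 ± 0.0414 RPKM with JQ1, against 2.81 ± 0.143 RPKM with DMSO. HT-29, the line with the most risers among the 9 members, had 26 reads of NLRC5 in its JQ1 libraries and 12 in its DMSO libraries, or 0.0367 RPKM with JQ1 and 0.0253 RPKM with DMSO, and no difference was called (adjusted p = 0.584).

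**Figure D4:**
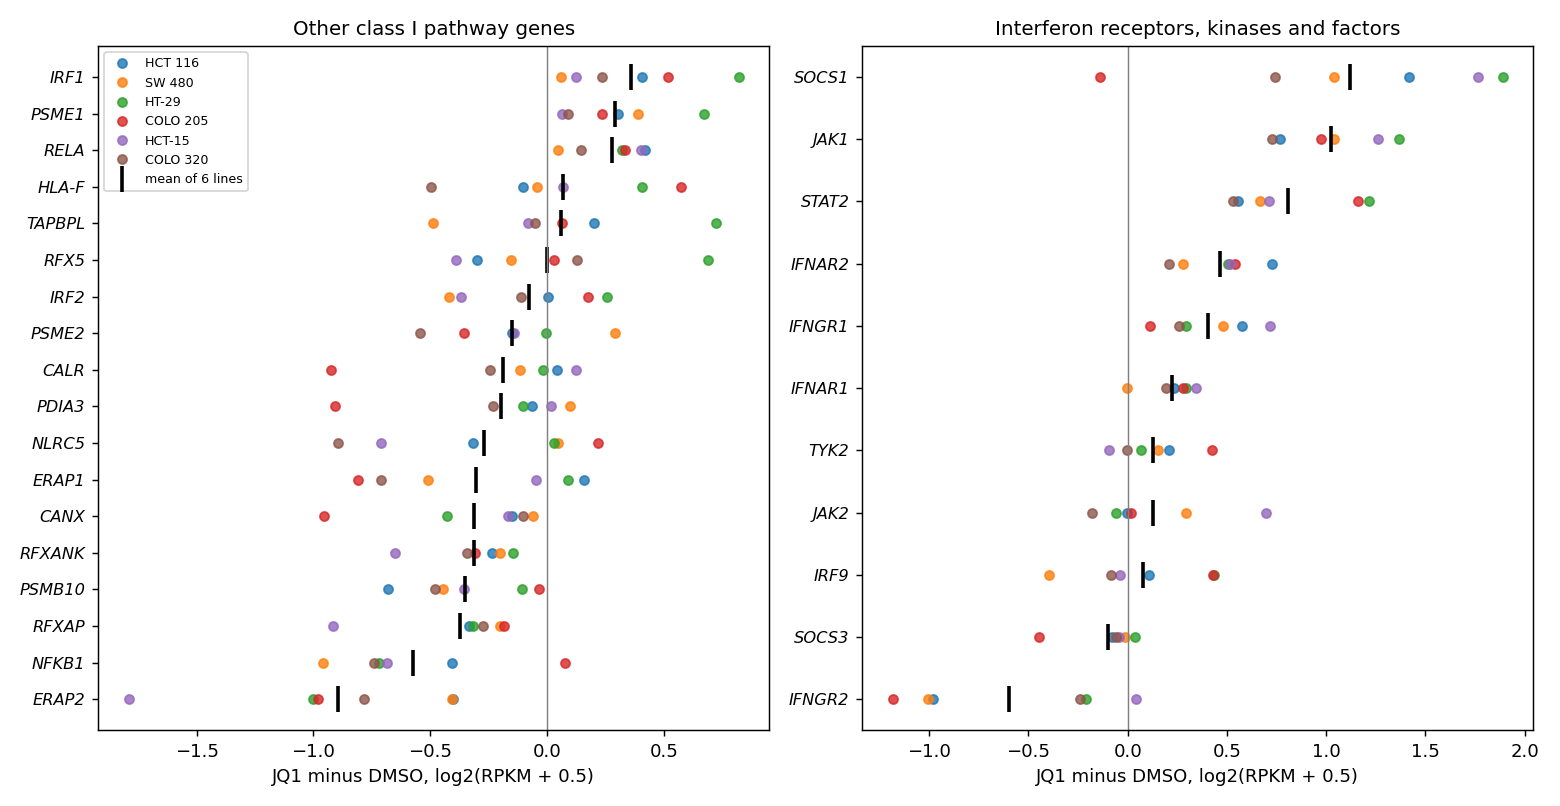
JQ1 minus DMSO difference of log2(RPKM + 0.5) in each line (coloured points) and the mean of the 6 lines (black ticks) for the other class I pathway genes (left) and for interferon signalling genes, SOCS1 and SOCS3 included (right). ERAP2 lies below 0 in every line, and JAK1 and STAT2 lie above 0 in every line.

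Genes of interferon signalling, with SOCS1 and SOCS3 counted among them, were more often higher than lower with JQ1. Of 11 genes tested, 8 were higher, 2 lower and 1 not called on average, against 40.2% of all tested genes higher and 48.3% lower. Their median log2 change was 0.22, against -0.04 for all tested genes. With the lines as the unit, JAK2 (adjusted p = 0.45), TYK2 (0.233) and SOCS3 (0.439) were not called. JAK1, a kinase bound to interferon receptors, rose in 6 of 6 lines and 2.03-fold on average, and in HCT-15 averaged 44.7 ± 0.285 RPKM with JQ1 and 18.4 ± 0.602 RPKM with DMSO (SD, n = 3 each). STAT2, a transcription factor of the type I interferon response, rose 1.75-fold on average and in 6 of 6 lines, COLO 320 and HCT-15 included. It averaged 11.8 ± 0.128 RPKM with JQ1 and 4.78 ± 0.293 RPKM with DMSO in HT-29, and 8.15 ± 0.453 RPKM with JQ1 and 5.48 ± 0.166 RPKM with DMSO in COLO 320. SOCS1, an inhibitor of JAK kinases, rose in 5 lines and 2.17-fold on average. IFNGR2, a chain of the interferon gamma receptor, fell by 0.60 on average and in 5 lines, whereas its partner IFNGR1 rose by 0.41 and in 6 of 6 lines. IFNAR2 rose by 0.46 on average and in 6 of 6 lines.

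Class II genes showed no common direction. Of 5 listed, 4 passed the filter, with CIITA left out. HLA-DMA and HLA-DMB were higher on average, by 0.17 and 0.19 on the log2 scale, CD74 fell by 0.14 and HLA-DRA was not called, and none of the 3 calls held with the lines as the unit (adjusted p = 0.584 for HLA-DMA, 0.349 for HLA-DMB and 0.24 for CD74). Calls of all tested genes went from 6245 to 2893 higher and from 7500 to 3162 lower with that unit.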

How the data were processed

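RNA-seq of 36 libraries was analysed from RPKM values per gene that the authors deposited. The submitters' processing notes list GSNAP, DESeq and limma without versions. They name the build NCBIM37, a mouse assembly name, although the gene IDs are human, so no coordinates of the table are printed; promoter windows are RefSeq's for GRCh38.p14. Groups came from the labels, and 0 value columns were without a sample.

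Whole reads were recovered from the RPKM steps for 23499 of the 23499 genes above 0 (100% within 1e-06 read). The library divisor behind the RPKM was not the reads in genes, which were 0.878 to 1.02 of it. In HCT-15 they were 0.953, 0.958 and 0.960 of it with JQ1, against 0.879, 0.880 and 0.878 with DMSO. COLO 205 went the other way, with 0.988, 0.991 and 0.986 with JQ1 against 1.004, 0.999 and 1.003 with DMSO. Voom on the recovered reads, given below, used reads in genes instead. No replicate pair agreed within sampling noise, with a chi-square per gene of 1.22 to 3.2 over 36 pairs. At 95% confidence a 0 leaves room for up to 3 reads, by counting error only.

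Tests used limma 3.58.1 (R 4.3.3) on log2(RPKM + 0.5) for 15542 genes with at least 1 RPKM in at least 3 libraries. The model had 12 group means, a variance trend, 24 residual and 2.97 prior degrees of freedom, and was tested on simulated data. Folds are on this scale, which understates changes of low genes. P-values are two-sided and Benjamini-Hochberg adjusted over all genes per contrast, and calls are under 0.05. Averages are of the 6 within-line differences. Members, lists and tests were chosen with earlier results of these data known. The rule names all 9 members, the listed genes with the largest average changes, and the 5 genes most like TAP1 and HLA-B with a symbol and a mean of at least 5 RPKM. One listed interferon gene is not reported here. Python 3.11.15, pandas 2.3.3 and matplotlib 3.10.9 were used.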

Additional observations from a re-analysis of the deposited data

Results flagged for a closer look

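The response to JQ1 differed between the 6 lines for each of the 9 genes by limma's F test of the interaction, adjusted over all tested genes, of which 93.3% passed. The adjusted p was 1.13e-23 for TAP2, with log2 changes from -1.25 in COLO 320 to 0.87 in HT-29, and 2.73e-23 for HLA-E, from 0.31 in HCT 116 to 1.5 in HT-29. B2M had 6.4e-21, from 0.08 in COLO 320 to 1.31 in HT-29. HLA-B had 2.34e-20, from -0.24 in COLO 320 to 1.31 in COLO 205. TAPBP had 4.82e-18, from -0.66 in HCT 116 to 0.41 in HT-29. TAP1 had 1.13e-16, from -0.92 in COLO 320 to 0.55 in HT-29. PSMB8 had 3.81e-16, from -2.13 in HCT-15 to 0.06 in HCT 116, where it was near 0 in both groups. HLA-C had 3.3e-12, from -0.14 in COLO 320 to 1.07 in HT-29. PSMB9 had 6.83e-11, from -0.51 in HCT-15 to 1.02 in HT-29. COLO 320, the line with EPCAM at 1.37 RPKM in DMSO and CDH1 and KRT19 at or near 0, had the lowest change for 5 of these 9 genes. The part of those markers in the responses was not tested.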

How the results depend on the processing

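Alternatives were pseudocounts of 0.1 and 1, no filter or a filter of 5 RPKM, quantile and total scaling, and voom on the recovered reads. Total scaling set all libraries to the same summed RPKM. Others were each line fitted alone, the line as the unit, each library left out and, chosen after seeing the data, leaving out COLO 320. With the lines as the unit, all genes called on average numbered 2893 higher and 3162 lower, against 6245 and 7500 over libraries, and 1 member was lower (PSMB8). Members lower in SW 480 numbered 1 after quantile scaling and with that line alone, and 1 to 2 with a library left out. Members higher in COLO 320 numbered 1 after quantile scaling. HLA-C in COLO 320 turned to 0.0035 after quantile scaling (adjusted p = 0.973) and was not called with a pseudocount of 1 (0.0501), without a filter (0.0553), with voom (0.398) or with the line alone (0.362). TAP1 in SW 480 was called after quantile scaling (0.0249) and with the line alone (0.049), TAPBP in SW 480 was not (0.121 and 0.0768), and HLA-B in HCT 116 was called after quantile scaling (0.00537), with the line alone (0.00564) and with a pseudocount of 1 (0.0439). The pseudocount of 0.1 and the filter of 5 RPKM changed none of 63 member calls. The causes of the changes were not tested. Of all genes called in HCT-15, 49.6% were higher, against 38.5% with total scaling and 38.6% with voom, where the median of all genes was -0.12. The replicate numbers did not pair the libraries, with correlations of -0.148 to 0.049 over 18 pairs and the own number best in 6. With the replicate block, HLA-C in COLO 320 was not called (log2 -0.14, adjusted p = 0.122), TAP1 in SW 480 was (0.09, adjusted p = 0.046), and 61 of 63 member results were unchanged in call. Depth limits PSMB8 in HCT 116 and COLO 320 and PSMB9 in COLO 320.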
